A study of Mus musculus with 10 samples.

Results

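Complement components are the secreted proteins of the complement system, and 9 of their genes were examined here in mouse esophagus: *C1qa*, *C1qb*, *C1qc*, *C1ra*, *C1s1*, *C2* and *C4b* of the classical pathway, *C3*, on which all pathways converge, and *Cfb* of the alternative pathway. They were chosen by gene symbol, with earlier results of these data known. They are 9 of the 54446 gene rows of the table of normalized counts. The tissue came from C57BL/6 mice of the WT genotype in 2 groups. In 5 OXA libraries (C1, D1, D2, D3 and D4) the mice had gone through an experimental model of eosinophilic esophagitis made with the small chemical allergen oxazolone. In 5 vehicle libraries (A1 to A5) they had received the control treatment. The sources used here do not give age, sex, dose or schedule. The labels do not say more about how the replicates were obtained, so the p-values measure the spread between these libraries.

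In the classical pathway, C1q, built from the A, B and C chains, binds antibody or other ligands and activates the proteases C1r and C1s, which cleave C4 and C2 into the C3 convertase. In the alternative pathway, factor B, cleaved by factor D and stabilized by properdin, forms the other C3 convertase. Liver makes most plasma complement, while C1q comes mainly from macrophages and dendritic cells, and C1r, C1s, C3 and C4 are also made by fibroblasts and other tissue cells.

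The libraries were made by CEL-Seq, which reads the 3′ ends of transcripts, from whole tissue. They held 3675479 to 8364227 reads in OXA and 5094159 to 12108822 reads in vehicle. The squamous epithelial markers, which define this tissue, were present in every library, with a summed level of 237295 to 570179 normalized counts in OXA and 613668 to 1035689 in vehicle. Of these 12 markers 2 rose (*Krt14* and *Cdh1*), 2 fell (*Krt15* and *Krt4*) and 8 did not pass, with a median log2 fold change of -0.12. The call of *Krt4* was lost in 12 of 22 alternatives to the main processing. All 5 pan-leukocyte markers rose in OXA, beside 15.7% of all genes tested called higher. Of 10 striated muscle markers, 2 fell, with calls lost in 9 and 15 of the 22 alternatives, and 8 did not pass the test. The summed level of the 10 ran from 77008 to 265680 in OXA, against 150407 to 190420 in vehicle.

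RefSeq promoters (GRCm38.p6, 250 bases before to 50 after the start) were at hand for 5 of the 9 genes, in 6 entries. Those of *C1qb*, *C1qc* and *C3* are shown, the C1q chains as genes made mainly by macrophages and dendritic cells and *C3* as a gene of many cell types. Capitals mark matches, on either strand, to the ETS core AGGAAGT, the MAF half-site TGCTGA and the C/EBP motif TTGCGNAA, 3 motifs chosen after the data were seen. The entries of *C1ra* and *C1s1*, which are not shown, held no match to these 3 motifs, so the stretches shown are those with a match. The *C1qb* stretch lies at chr4:136886201-136886450 on the minus strand. The *C1qc* stretch, chr4:136893066-136893164 on the minus strand, is limited to the 99 bases that lie outside the annotated gene. The *C3* stretch lies at chr17:57228137-57228386 on the minus strand.
C1qb: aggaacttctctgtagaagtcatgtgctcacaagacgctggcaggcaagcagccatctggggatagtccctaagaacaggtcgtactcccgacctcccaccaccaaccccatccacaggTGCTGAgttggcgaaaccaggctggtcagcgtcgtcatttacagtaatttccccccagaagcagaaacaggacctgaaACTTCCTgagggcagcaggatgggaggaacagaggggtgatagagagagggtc
C1qc: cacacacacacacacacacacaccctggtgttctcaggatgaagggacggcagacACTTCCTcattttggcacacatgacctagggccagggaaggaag
C3: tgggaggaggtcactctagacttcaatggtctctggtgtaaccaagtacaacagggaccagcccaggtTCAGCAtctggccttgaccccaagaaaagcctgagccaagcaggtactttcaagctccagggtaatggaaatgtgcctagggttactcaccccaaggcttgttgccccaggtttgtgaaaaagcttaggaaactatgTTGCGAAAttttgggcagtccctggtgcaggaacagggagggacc

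The ETS core starts 53 bases before the *C1qb* start and 195 before the *C1qc* start, and was present in 9.35% of 32851 mouse promoters of the same length. The MAF half-site lies in the *C1qb* and *C3* stretches and was in 19.5% of promoters. The C/EBP motif of *C3* starts 45 bases before the start and was in 0.798%. Of 3 motifs tied to inflammatory signalling, the interferon element (GAAA and GAAA with 2 bases between them, 3.44% of promoters) and the NF-kB motif (GGG and TTNCC with 2 bases between them, 4.79%) were found in none of the 6 entries. The STAT motif TTCNNNGAA (8.30%) was found once, in *C1ra*, which held no match to the other motifs. That match starts 33 bases after the RefSeq start of *C1ra*, and 216 of the bases before that start already lie inside the annotated gene. The STAT match therefore lies inside the annotated gene and not upstream of it. The *C1s1* entries, which are not shown, held no match to any motif named here. A match is a description of these letters and says nothing of binding.

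All 9 genes had a higher mean in OXA, and 8 of them passed the test. By limma on log2(value + 1) with Benjamini-Hochberg adjustment over 14712 genes (called at an adjusted p under 0.05), 8 were called higher and 0 lower, where 15.7% of all genes tested were called higher and 14.2% lower. In 8 of the 9 every OXA library was above every vehicle library, a separation seen in 12.0% of genes tested. One of these 8, *Cfb*, met the expression minimum only through the OXA libraries. Leaving it out, 7 of 8 were called. The median log2 fold change of the 9 genes was 0.99, with a range of 0.66 to 1.43, beside a median of -0.01 over all genes tested. The 9 genes were chosen with earlier results of these data known, so these shares are background and not a test of the set. In whole tissue, more cells of a type and more RNA per cell cannot be told apart.

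**Figure D1:**
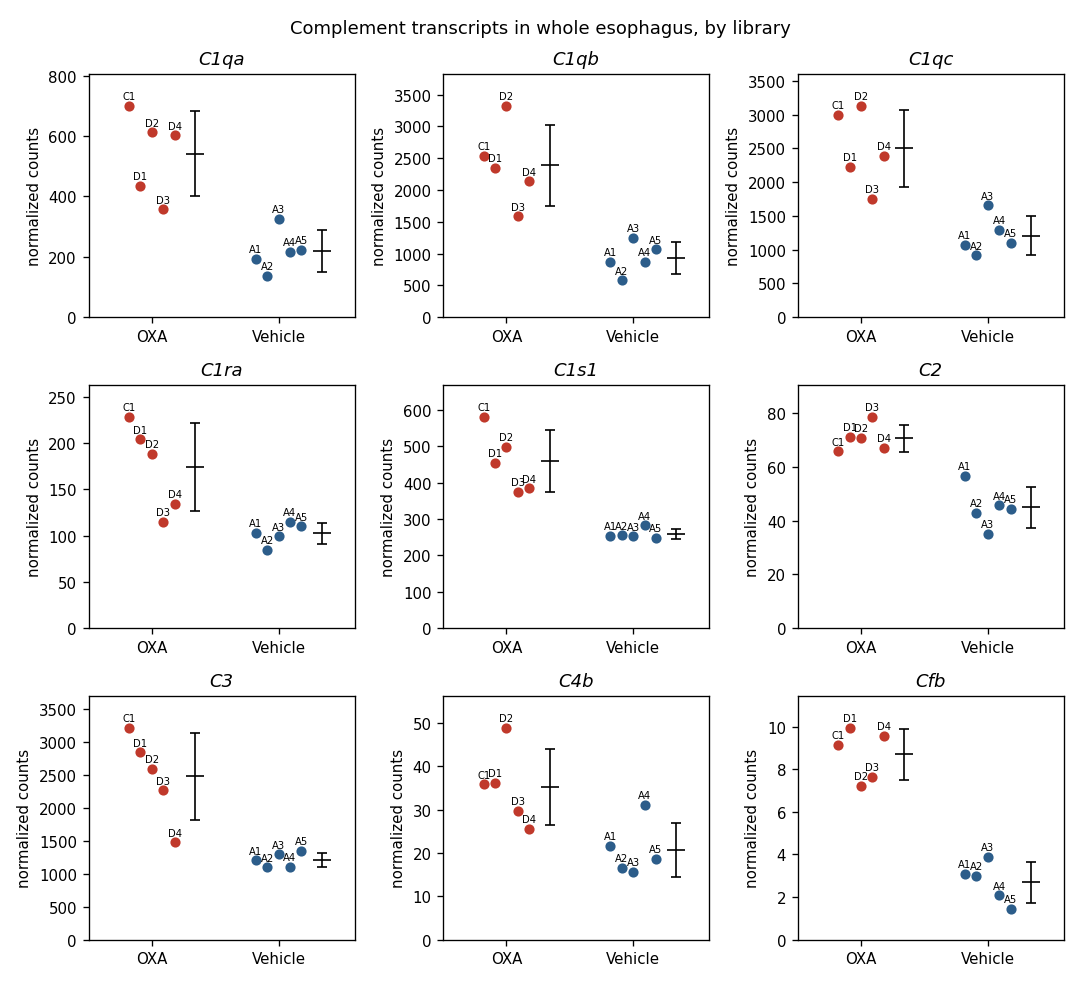
Normalized counts (linear axis from 0) of the 9 complement genes in each OXA and vehicle library, one point per library, with bars for the group mean ± SD. The 5 OXA libraries lie above all 5 vehicle libraries for 8 genes, and overlap them for *C4b*.

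The C1q chains, which form the recognition unit, rose together by 2.07 to 2.57 times in group means. Their genes lie side by side on the minus strand of chromosome 4 (GRCm38), *C1qb* at 136879829 to 136886187, *C1qc* at 136889504 to 136893065 and *C1qa* at 136895617 to 136898803, with 3616 and 2851 bases between their GENCODE M21 ends, which stop short of the table's. *C1qa* had 701, 434, 612, 357 and 602 normalized counts in OXA libraries C1, D1, D2, D3 and D4, against 193, 137, 325, 217 and 222 in vehicle libraries A1 to A5. The lowest OXA library, D3, was above the highest vehicle library, A3. *C1qa* averaged 541 ± 141 in OXA and 219 ± 68.4 in vehicle (SD, n = 5 each), a log2 fold change of 1.31 ± 0.23 (SE, limma adjusted p = 0.000732).

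*C1qb* had 2538, 2348.5, 3328, 1583 and 2136 normalized counts in the OXA libraries, against 872, 580.5, 1247, 874 and 1067 in the vehicle libraries. *C1qc* had 2999, 2226, 3134, 1748 and 2389.7 in OXA, against 1072, 915, 1656, 1297 and 1102 in vehicle. For both chains D2 was the highest and D3 the lowest OXA library, and A3 the highest and A2 the lowest vehicle library. The log2 fold change was 1.37 ± 0.22 for *C1qb* (limma adjusted p = 0.000407) and 1.05 ± 0.19 for *C1qc* (limma adjusted p = 0.00110). Of 4 pairs of genes compared for the size of their change (pairs chosen after the values were seen), none passed. The change of *C1qb* exceeded that of *C1qc* by 0.32 on the log2 scale (exact permutation p = 0.0476, adjusted p over the pairs 0.0952), and that of *C1qa* exceeded it by 0.27 with the same p-values.

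The genes of the C1 proteases also rose. *C1ra* (chromosome 6, 124512405 to 124523743) and *C1s1* (chromosome 6, 124530045 to 124542359) are neighbours on opposite strands. *C1ra* had 228, 204, 188, 115 and 134 normalized counts in OXA, against 103, 84.8, 99.4, 115 and 110 in vehicle. The groups only just separate, with OXA library D3 at 114.92 and vehicle library A4 at 114.78. The log2 fold change was 0.72 ± 0.20 (limma adjusted p = 0.0134).

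*C1s1* had 581, 455, 498, 374 and 385 normalized counts in OXA, against 254, 256, 252, 283 and 249 in vehicle. The vehicle libraries lay close together and below every OXA library, and the log2 fold change was 0.81 ± 0.14 (limma adjusted p = 0.000725). The changes of *C1ra* and *C1s1* differed by -0.09 (exact permutation p = 0.468, adjusted p over the pairs 0.624). The near-identical copies *C1rb* and *C1s2* had 6 reads and 1 read over all libraries. The sources used here do not say how reads that match both copies were treated, so the split between copies is uncertain.

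Of the substrates of C1s, *C2* rose and *C4b* did not pass. *C2*, the protease part of the classical convertase (chromosome 17, 34862304 to 34898265), had 65.7, 71.1, 70.6, 78.5 and 67.1 normalized counts in OXA, against 56.5, 42.8, 35.1, 45.7 and 44.4 in vehicle. It averaged 70.6 ± 5.01 in OXA and 44.9 ± 7.69 in vehicle (SD, n = 5 each), a log2 fold change of 0.66 ± 0.18 (limma adjusted p = 0.0148). *C4b* (chromosome 17, 34728080 to 34743882), which gives the other part, had 35.9, 36.3, 48.9, 29.7 and 25.5 in OXA, against 21.6, 16.5, 15.6, 31.2 and 18.6 in vehicle. Vehicle library A4 was above OXA libraries D3 and D4. Its log2 fold change was 0.75 ± 0.27 (95% interval 0.17 to 1.33, limma adjusted p = 0.0510), and without A4 it was 0.90 (limma adjusted p = 0.0314). *C4b* passed in 4 of 22 alternatives, that one included, and its limma adjusted p ran up to 0.222. It rested on 172 reads in OXA and 132 in vehicle, 60 of the latter in A4. Its near-identical copy *C4a* had 8 reads in all, with the same uncertainty.

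*C3*, whose cleavage marks surfaces for uptake, rose by 2.05 times. It lies on chromosome 17 at 57203670 to 57228136. It had 3219, 2847, 2593, 2272 and 1478 normalized counts in OXA, against 1203, 1096, 1294, 1102 and 1349 in vehicle. OXA library D4 stood lowest and closest to vehicle, and the other 4 OXA libraries were at 2272 or more. *C3* averaged 2482 ± 660 in OXA and 1209 ± 113 in vehicle (SD, n = 5 each), a log2 fold change of 0.99 ± 0.19 (limma adjusted p = 0.00128). With 1 library left out, it ran from 0.89 without C1 to 1.17 without D4.

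*Cfb* had 9.16, 9.95, 7.24, 7.66 and 9.58 normalized counts in OXA, against 3.08, 3.0, 3.90, 2.08 and 1.43 in vehicle. These are 12, 14, 4, 8 and 6 reads in OXA, against 3, 4, 4, 4 and 1 in vehicle, so single reads matter. The log2 fold change was 1.43 ± 0.43 (limma adjusted p = 0.0213). Over the alternatives it ran from 0.84 with a pseudocount of 5 to 1.70 by DESeq2. The call was lost without OXA library C1 (limma adjusted p = 0.0501) or D1 (limma adjusted p = 0.0519), without the shallow libraries A5, D2 and D4 (0.0650) and with no expression minimum (0.0545).

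*Cfb* (chromosome 17, 34856074 to 34862518) lies 85 bases from *C2* on the same strand in the GENCODE M21 annotation, and shares 215 bases with it once the table's longer 3′ ends are counted. In that annotation, 71.9% of its exon bases are shared with the predicted gene *Gm20547*, listed at 0 in every library, and 15.8% with *Nelfe* on the opposite strand, which averaged 87.8 normalized counts. All of the *Nelfe* overlap falls in the last 600 bases, where 3′ reads are expected, and 55 of those bases are free of any other gene. For *C2*, 385 of the last 600 bases are free. The sources used here do not give the strand setting of the counting, and without it reads of *Cfb* and *Nelfe* cannot be told apart from the table. The table's gene ends lay 300 bases past the GENCODE M21 3′ end for all 9 genes and for 89.6% of matched protein-coding genes.

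**Figure D2:**
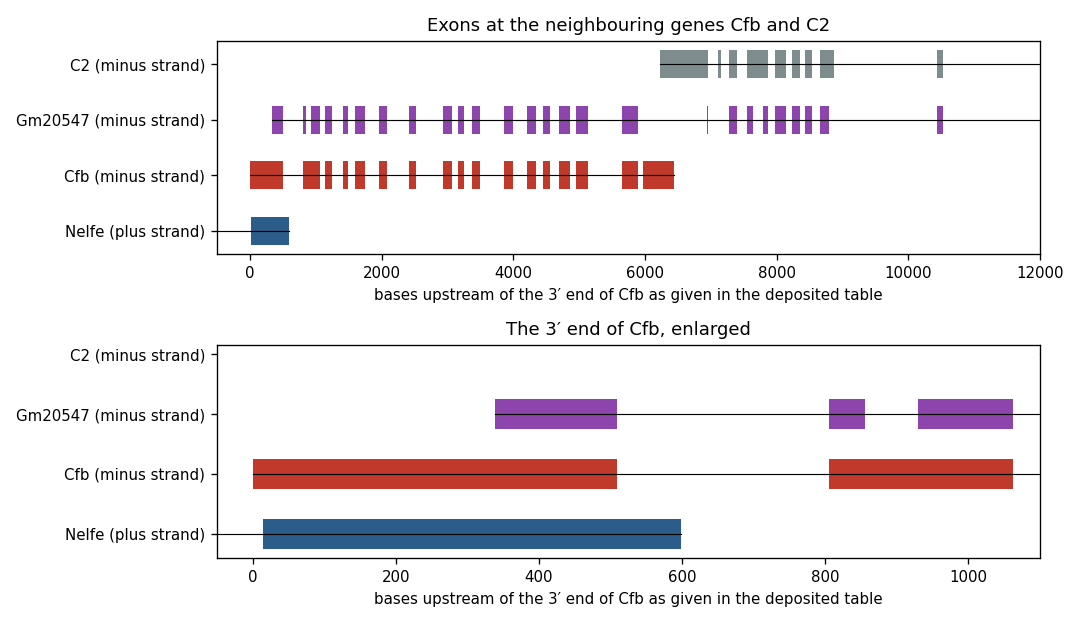
Exons of *Cfb*, *C2* and the genes that overlap them, drawn to scale by distance in bases upstream of the 3′ end of *Cfb* in the table, with one row per gene and the 3′ end enlarged below. The 3′ end of *Cfb* shares bases with *Nelfe* on the opposite strand, and most of its exons are shared with *Gm20547*.

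The partners of *Cfb* in the alternative pathway rose too. *Cfp*, the gene of properdin, had 264, 222, 322, 154 and 192 normalized counts in OXA, against 71.9, 73.5, 113, 88.3 and 100.2 in vehicle. No libraries overlapped, and the log2 fold change was 1.34 ± 0.21 (limma adjusted p = 0.000319). *Cfd*, the gene of factor D, which adipocytes make in quantity, had 612, 596, 1265.5, 527 and 267 in OXA, against 284, 375, 262, 273 and 185 in vehicle. OXA library D2 stood far above the others and D4 below 3 vehicle libraries. The log2 fold change of *Cfd* was 1.103 ± 0.315 (limma adjusted p = 0.0170) and 0.82 without D2. Of 7 adipocyte markers tested, 2 rose and 5 did not pass, with a median log2 fold change of 1.003 over the 7. Single markers among the 5 passed in up to 6 of 22 alternatives. The summed level of all 8 adipocyte markers was 2471 to 4068 in OXA and 1925 to 3871 in vehicle. Their part in the result was not tested.

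Over the 46 other complement genes of 7 lists, 24 were tested, of which 9 rose, 0 fell and 15 did not pass. Of all genes tested, 15.7% were called higher and 14.2% lower. The median log2 fold change of the 24 was 0.36. Among the tested, 2 met the minimum only through OXA and 3 only through vehicle, while 8 were listed at 0 in every library and 14 were under the minimum. Of 8 receptor genes tested, 5 rose. *C3ar1*, the C3a receptor, averaged 208 ± 60.8 in OXA and 50.3 ± 9.72 in vehicle (SD, n = 5 each) (limma adjusted p = 1.95e-05). The integrin chains of complement receptors 3 and 4 also rose, with log2 fold changes of 1.85 ± 0.22 for *Itgb2*, 1.80 ± 0.23 for *Itgax* and 1.183 ± 0.190 for *Itgam*. All leukocytes carry *Itgb2*, and neutrophils carry *Itgam*. Of 5 neutrophil markers tested, 4 rose, with a median log2 fold change of 2.82, and the summed level of all 8 was 1185 to 4981 normalized counts in OXA and 333 to 437 in vehicle. Their part in the result was not tested. *C5ar1*, a C5a receptor, averaged 55.9 ± 31.3 in OXA and 29.7 ± 8.67 in vehicle (limma adjusted p = 0.113, and DESeq2 adjusted p = 0.0446).

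Few genes of the lectin and terminal pathways met the expression minimum. Of 8 lectin genes, 4 (*Mbl1*, *Mbl2*, *Fcnb* and *Colec10*) were listed at 0 in every library, 3 were tested and none passed. *Fcna*, a ficolin, averaged 41.4 ± 10.6 in OXA and 71.9 ± 25.9 in vehicle (SD, n = 5 each, limma adjusted p = 0.0522). It was called lower in 6 of 22 alternatives, edgeR and DESeq2 among them, with an adjusted p down to 0.0228. *Masp1*, a lectin pathway protease, averaged 37.8 ± 20.01 in OXA and 44.1 ± 7.75 in vehicle (limma adjusted p = 0.431). Of 7 terminal genes, 1 was tested. *C6*, a part of the membrane attack complex, averaged 14.4 ± 3.68 in OXA and 3.06 ± 2.11 in vehicle, from 72 and 21 reads. Its log2 fold change was 2.05 ± 0.46 (limma adjusted p = 0.00422) and 1.29 with a pseudocount of 5, and it met the minimum only through OXA.

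Among inhibitors, 1 of 5 soluble regulators tested rose and 0 of 5 membrane regulators, beside 15.7% of all genes tested. The one that rose was *Cpn1*, the catalytic chain of the enzyme that trims anaphylatoxins, at 122 ± 38.6 in OXA and 57.5 ± 12.3 in vehicle (log2 fold change 1.05 ± 0.23, limma adjusted p = 0.00322). Its partner *Cpn2* was listed at 0 in every library. *Serping1*, the C1 inhibitor, had 3227, 2821, 3179, 2389 and 2371 normalized counts in OXA, against 2111, 1992, 2913, 2296 and 3032 in vehicle. The groups overlapped, and the log2 fold change was 0.19 with a 95% interval of -0.16 to 0.54 (limma adjusted p = 0.412). *Cr1l*, a membrane inhibitor, averaged 319 ± 12.5 in OXA and 321 ± 42.5 in vehicle, a log2 fold change of 0.00 with an interval of -0.27 to 0.28.

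**Figure D3:**
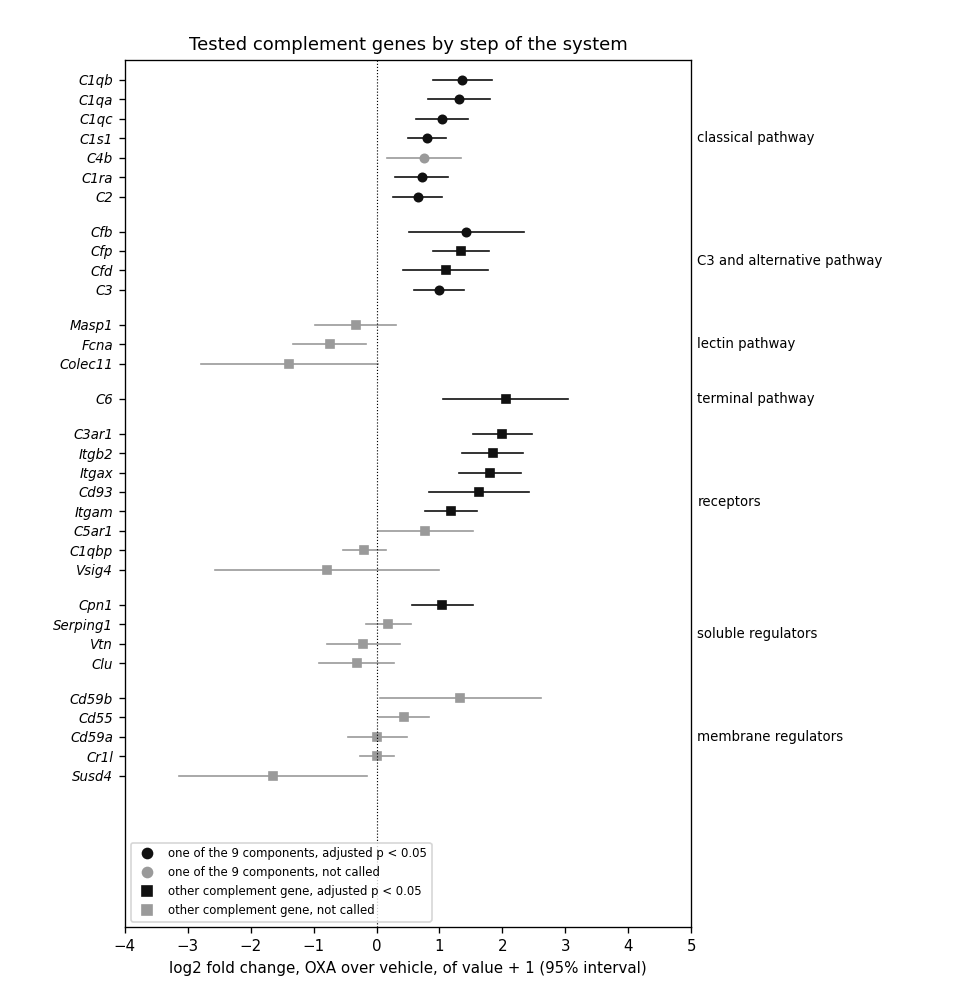
Log2 fold change of OXA over vehicle with its 95% interval for the tested complement genes reported here, grouped by step of the system. The called genes, in black, all lie to the right of 0, and most lie in the classical, alternative and receptor groups.

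Markers of cells that can make these components were counted beside the 15.7% of all genes tested that were called higher. Of 14 macrophage and monocyte markers, 10 rose and 0 fell, among them *Aif1* (log2 fold change 2.77 ± 0.34) and *Mrc1* (1.35 ± 0.22). The 4 that did not pass, named after their values were seen, were *Cd163* (-0.27), *Folr2* (-0.27), *Lyve1* (0.28) and *Cd14* (0.52). Their summed level was 4217 to 7912 normalized counts in OXA and 2898 to 4402 in vehicle. Of 12 fibroblast markers, 2 rose, among them *Col3a1* (1.20 ± 0.25), 1 fell, *Fbln1* (-0.86 ± 0.14), and 9 did not pass. Their summed level was 45539.9 to 79515 in OXA and 44064 to 64957 in vehicle. Of 10 endothelial markers, 1 rose, *Kdr*, whose call was lost in 12 of 22 alternatives. Liver markers were near 0, with the sum of 8 hepatocyte genes at 3.62 to 20.8 in OXA and 0 to 15.4 in vehicle.

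Each component was then set against the mean log2 level of the markers in the same library. The macrophage mean was 7.89 ± 0.36 in OXA and 6.83 ± 0.21 in vehicle (exact permutation p = 0.00794, the smallest that 252 splits allow), and the fibroblast mean 10.50 ± 0.26 in OXA and 10.33 ± 0.18 in vehicle (exact permutation p = 0.294). Relative to the macrophage markers, 0 of the 9 genes differed after adjustment over 18 comparisons, but without vehicle library A3 *C1ra* and *C1s1* did (-0.43 and -0.35, exact permutation, adjusted p = 0.0476). The difference was -0.02 for *C1qc* (exact permutation p = 0.881), 0.25 for *C1qa* (0.167), 0.30 for *C1qb* (0.0714), -0.34 for *C1ra* (0.0714) and -0.26 for *C1s1* (0.103). These p-values do not show that component and markers changed alike. Relative to the fibroblast markers, 7 of 9 rose, each with an exact permutation p of 0.00794 (adjusted p = 0.0204). The fibroblast mean itself moved by 0.17, so these differences largely repeat each gene's own rise over vehicle and are not separate evidence. The share of all genes that would pass this comparison was not computed. The differences ran from 0.55 for *C1ra* and 0.64 for *C1s1* to 1.20 for *C1qb* and 1.26 for *Cfb*. Leaving out *Cfb*, which met the minimum only through OXA, 6 of 8 rose, with 1.20 the highest. *C2* (0.49) and *C4b* (0.58) did not pass (adjusted p = 0.111).

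**Figure D4:**
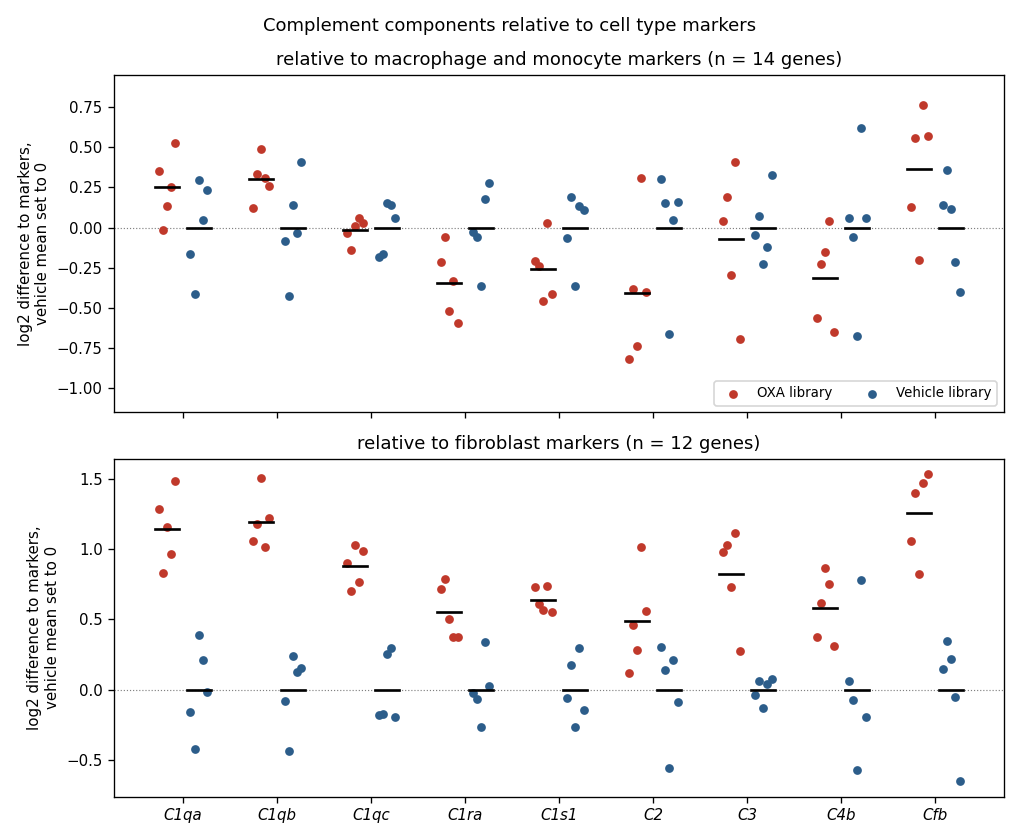
Log2 level of each component minus the mean log2 level of the macrophage markers (top) or fibroblast markers (bottom) in every library, with the vehicle mean set to 0 and bars at group means. OXA and vehicle points overlap for all 9 genes in the top panel, and separate for 7 in the bottom panel.

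The variation between libraries of the same group, after subtraction of group means, was described by Pearson's r over the 10 libraries, which share depth and composition within a library. *C1qa* followed *C1qc* (r = 0.93) and *C1qb* (r = 0.85), with lower values for *C1ra* (r = 0.50) and *C3* (r = 0.18). Against *C2* it was negative (r = -0.58). For *C1s1*, r was 0.87 with *C1ra*, 0.66 with *C3*, 0.61 with *C4b* and 0.60 with *C1qc*. Among 11352 other genes with a mean of at least 20, those most like *C1qa* were *Enkd1* (r = 0.96), *Snx5*, *Cyba*, *Ly86* and *Wipi2* (r = 0.93). For *C1s1* they were *Pcif1* (r = 0.91), *Mxra8*, *Tmem259*, *Gpx3* and *Ift43* (r = 0.87), and for *C3* *Apold1* (r = 0.99), *Cndp2*, *AU021092*, *Ltbp4* and *Zbtb34* (r = 0.95). These are the highest of 11352 values over 10 libraries, and how high chance alone would reach was not computed. No r was tested.

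Genes of inflammatory programmes that are known to raise complement transcription moved in the same libraries. Of all genes tested, 15.7% were called higher and 14.2% lower. Of 18 interferon response genes, 17 rose, with a median log2 fold change of 2.42, with *Psmb8* at 2.99 ± 0.22, and their summed level was 7646 to 11312 in OXA and 867 to 4142 in vehicle. Of 13 acute phase and NF-kB genes tested, 7 rose, among them *Saa3* (4.09 ± 0.59), 1 fell, *Cebpd* (-1.02 ± 0.20), and 5 did not pass. The part of these programmes, and of the cell types above, in the complement changes was not tested.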

How the data were processed

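Per the labels' protocols, TRIZOL-extracted RNA of esophagus was sequenced with CEL-Seq. The table deposited by the authors holds a signal, normalized counts on GRCm38, each a gene's count over its library's size factor. Whole reads were recovered for 100% of values within a tolerance of 0.006. The submitters' processing notes list, without roles, DESeq2 1.18.1, HTSeq 0.11.2, TopHat2 2.1.0 with Bowtie2 2.2.6, Trim Galore with cutadapt 1.10, and FastQC 0.11.5. The sources used here do not give the strand setting, the annotation release, any use of molecular identifiers or the treatment of reads matching several genes.

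OXA was compared with vehicle over all 10 libraries by limma 3.58.1 (R 4.3.3, lmFit and eBayes with trend) on log2(value + 1), which understates the change of low genes, on 14712 genes, those averaging at least 5 normalized counts. P-values were two-sided with Benjamini-Hochberg adjustment, called under 0.05. No batch term was fitted, because the letters in the titles follow treatment and their meaning is unstated. For single values an exact permutation test, two-sided, ran over all 252 splits. Alternatives were other pseudocounts, expression minimums, scalings, a muscle covariate, a replicate block, libraries left out, and, on the recovered reads, edgeR 4.0.16 (2411 genes higher, 1972 lower) and DESeq2 1.42.0 (2627 higher, 2249 lower).

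The 9 genes and all lists were chosen with earlier results of these data known. Named genes were the 9 genes, called pathway genes and others with a mean of at least 20, up to 4 tested members of each marker list with the smallest p, the 5 genes most like *C1qa*, *C1s1* and *C3*, and annotated overlaps or copies. Of the list members, 2 are counted but not reported by name here.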

Additional observations from a re-analysis of the deposited data

Results flagged for a closer look

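In 66 groups examined (33 tested complement genes in the OXA and the vehicle libraries), 2 held a single library far from the rest, where chance flags about 1 in 20 groups. *C1s1* had 282.52 normalized counts in vehicle library A4, above the next vehicle value of 255.74 and below every OXA library. *Colec11*, a collectin of the lectin pathway that did not pass the test, had 12.79 in OXA library D1, where the next OXA value was 3.62.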

How the results depend on the processing

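Over 22 alternatives, the direction of all 9 components held, and 5 of them (*C1qa*, *C1qb*, *C1qc*, *C1s1* and *C3*) were called under each. Leaving out one library or A5, D2 and D4, or changing pseudocount, minimum, scaling, tool or covariate, kept 7 to 9 called. *C4b* passed in 4 of the 22 alternatives. These were a pseudocount of 5 (limma adjusted p = 0.0474), scaling to library totals (0.0307), and leaving out D4 (0.0335) or A4 (0.0314). Scaling to library totals called 2917 genes higher and 1542 lower in place of 2309 and 2085, and moved the median log2 fold change of all genes to 0.12, relative to which *C4b* at 0.88 and the other components stayed above. Over the alternatives that leave out one library, 1896 to 2361 genes were called higher and 1686 to 2201 lower.

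The number of component and marker differences that passed was 7 of 18, ran from 7 to 9 when one library was left out, and was 0 without A5, D2 and D4. With those 3 libraries removed only 35 splits remain, and the smallest adjusted p was 0.0857. Without A3, *C1ra* (-0.43) and *C1s1* (-0.35) fell relative to the macrophage markers (exact permutation, adjusted p = 0.0476 each).

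The numbers 1 to 4 occur in the titles of vehicle libraries A and OXA libraries D, and nothing in the labels ties them to an animal, batch or day. Deviations of same-numbered libraries from their group means correlated at 0.12, -0.19, -0.15 and 0.03. Those of differently numbered libraries ran from -0.25 to 0.25. With so wide a range, these values cannot show whether same-numbered libraries share more than a number. A fit with the number as replicate block over these libraries, chosen after seeing the data, called 1427 genes higher, 1084 lower and 5 components. The same libraries with no block called 1707 higher, 1417 lower and 6 components. *C1ra* and *Cfb* lost their calls in both, and *C2* under the block. Depth limits *Cfb* most, at 44 reads in OXA and 16 in vehicle.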
